A study of Homo sapiens with 12 samples.

Results

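The experiment compared 293A-TOA cells depleted of SFSWAP with cells given non-target siRNA (siNT), both treated with the O-GlcNAcase inhibitor TG and both with UPF1 left in place. 293A-TOA is a line derived from the human embryonic kidney line HEK293A. The siSFSWAP cells received 40 nM siRNA against SFSWAP and the knockdown lasted 5 days in either group. All 6 libraries, 3 biological replicates of each group, come from cells exposed to 1 µM TG for 6 hr, so cells without TG are not part of the comparison. The series holds 12 libraries, and the other 6 are the same pair of groups with 30 nM siRNA against UPF1 added. Polyadenylated RNA was sequenced, and splicing was read as 2 kinds of event. A retained intron event counts reads that keep an intron against reads that splice it out, and a skipped exon event counts reads that include an exon against reads that join its neighbours directly. Events were tested if they averaged 10 reads or more per library and if each form had 10 or more reads summed over the 6 libraries. This kept 5845 of the 10576 retained introns listed and 33839 of the 115209 skipped exons, and the latter cover 30518 distinct exons.

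SFSWAP is an RS domain protein with SURP modules, a fold also found in SF3A1, where it binds the branchpoint protein SF1. It was first known as a regulator of alternative exons and of its own pre-mRNA. OGT adds O-GlcNAc to nuclear and cytoplasmic proteins and O-GlcNAcase (named MGEA5 in the files) removes it, and cells adjust both by splicing: when O-GlcNAc is high, as under TG, intron 4 of OGT stays in the nuclear transcript, where a decoy exon inside the intron holds it. A detained intron leaves the RNA in the nucleus, and an exon that brings a premature stop codon sends the mRNA to UPF1-dependent nonsense-mediated decay.

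Reads of SFSWAP itself checked the labels. Its 25 listed skipped exon events held 127, 114 and 122 of every 1000000 reads in the siNT libraries and 37.4, 59.2 and 44.7 in the siSFSWAP libraries, taken over all reads at such events. The mean went from 121 ± 6.65 (SD, n = 3) to 47.1 ± 11.1, which is 61.1% lower (exact permutation test over the 6 libraries, two-sided, p = 0.1, which is the lowest p possible with 3 against 3). The 3 values of each group have no replicate number in the files and are called here by their place in the list. Reads at retained intron events came to between 2546916 and 3030493 per library, and reads at skipped exon events to between 33165135 and 40637076. A read can count at several events.

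Introns were retained less after SFSWAP knockdown. The retention level, the share of the intron-keeping form after correction for its length, runs from 0 to 1. It fell at 649 introns of 428 genes and rose at 88 introns of 79 genes, which are 11.1% and 1.51% of the 5845 tested (quasi-binomial regression on the reads of both forms, dispersion moderated with limma, Benjamini-Hochberg adjusted p of at most 0.05 over all introns). The introns that fell had a median level of 0.218 in siNT and 0.0707 in siSFSWAP. Those that rose went from a median of 0.180 to 0.339. Over every intron tested the median level was 0.0725 in siNT and 0.0546 in siSFSWAP, and the difference was below 0 at 63.1%. The groups did not overlap at 547 of the 649 introns and at 67 of the 88, beside 24.6% of all introns.

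The libraries of a group did not show the shift to an equal degree. The median level of the 649 introns was 22.8%, 15.3% and 25.4% in the siNT libraries and 6.02%, 6.81% and 8.21% in the siSFSWAP libraries. The second siNT library thus stood nearest to the knockdown, although all siNT medians lay above all siSFSWAP medians, and without it 787 introns were lower. Without the first or the third siNT library or the first siSFSWAP library the count dropped to 430, 418 or 424. In bulk RNA a fall in every cell and a larger fall in some cells cannot be told apart. Of the calls, 285 of the lower introns and 24 of the higher held with each of the 6 libraries left out in turn. The spread that the test used is shared by introns of like depth, so that an intron's own variation weighs little. With each intron's own dispersion 0 passed in either direction, with 680 lower and 127 higher introns at an unadjusted p of at most 0.05, and with limma on the log2 odds 0 passed too (945 and 176 unadjusted).

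**Figure D1:**
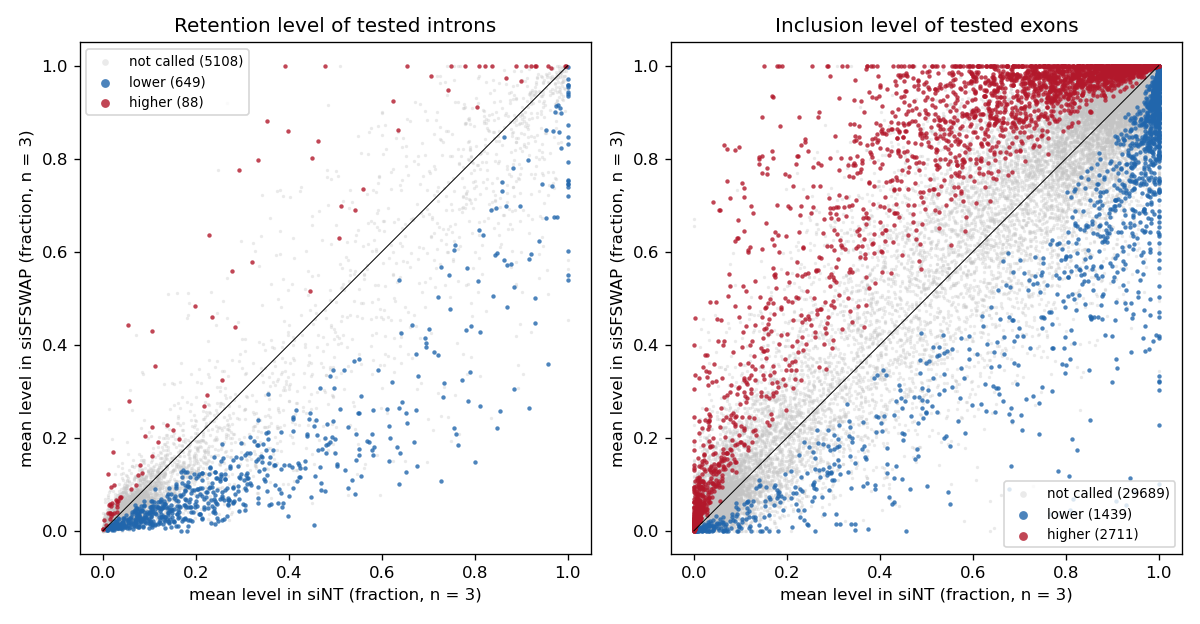
Mean level of each tested event in siNT (horizontal axis) and siSFSWAP (vertical axis), as a fraction, n = 3 libraries per group, with introns on the left and exons on the right. Blue points were lower and red points higher after knockdown, and the diagonal marks equal levels. Among called introns the 649 blue points outnumber the 88 red ones, while among called exons the 2711 red points outnumber the 1439 blue ones.

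The introns that fell the most were rich in G and C, and they were short and inside coding regions as most tested introns are. They were taken from the genes with the largest fall among introns with at least 50 reads per library and groups that do not overlap, and 11 are described. They measured 79 to 186 nt with a GC content of 51.9% to 74.5%, and 10 of the 11 are introns of the MANE transcript between coding exons. Over all introns tested the median length was 128 nt, the median GC content 55.8%, and 79.8% lay in a coding region. The test also holds for all 11 without each library in turn. Their 3′ splice sites are shown because weak 3′ sites were frequent among introns that fell. Each line has the last bases of the intron and the first bases of the next exon, 23 in all, read from GRCh38 in the direction of transcription, and the capitals mark the last 2 bases of the intron.
TUBG2 intron 7: catggcacgcctgtccccAGgtg
GBA2 intron 14: tttctcttcctcgactccAGgcc
ACADVL intron 18: catctcctgcttcctgccAGggc
NDOR1 intron 7: gcctcccactcaccctgcAGatg
WDR45 intron 9: ttagccagtgctgcctgcAGgct
PIEZO1 intron 41: ctgtgctctcctggccacAGaag
IFRD2 intron 3: cccttctcgacctcccccAGtgc
RAB34: tgactctggccttccctcAGacc
PCNX3 intron 4: ctctggggccatggttgcAGaca
FTSJ1 intron 8: actccaccttcccctggcAGagg
MCAM intron 13: ggagtgtctttgtggcgcAGaga

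TUBG2, one of the human γ-tubulin genes that nucleate microtubules, changed the most of the introns with at least 50 reads per library and separate groups. Its intron 7 (chr17:42665563-42665677, plus strand) was retained at levels of 0.816, 0.891 and 0.839 in siNT and 0.121, 0.238 and 0.302 in siSFSWAP. The groups lie far apart, with a log2 odds ratio of siNT to siSFSWAP of 4.35 ± 0.71 (SE; adjusted p = 5.55e-12). Reads of TUBG2 and its near-identical copy TUBG1 may be exchanged by the aligner. The last intron but one of ACADVL, the very long chain acyl-CoA dehydrogenase of mitochondrial fatty acid oxidation (intron 18 of 19, chr17:7224715-7224808), went from 0.463, 0.601 and 0.782 to 0.111, 0.204 and 0.137 (log2 odds ratio 3.06 ± 0.52, adjusted p = 3.09e-08). GBA2, a glucosylceramidase outside the lysosome, had intron 14 (chr9:35738153-35738231) retained at 0.532, 0.556 and 0.921 in siNT and at 0.0870, 0.298 and 0.190 in siSFSWAP (adjusted p = 2.61e-10). Groups that do not overlap were a condition for naming these genes, and the third siNT library of GBA2 stood well above the others of its group.

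In WDR45, whose product WIPI4 acts at autophagosome formation, intron 9 (chrX:49075282-49075363) fell from 0.751, 0.590 and 0.863 to 0.279, 0.215 and 0.462 (adjusted p = 9.86e-06). FTSJ1, a tRNA 2′-O-methyltransferase, had its intron 8 (chrX:48481529-48481631) at 0.630, 0.381 and 0.641 and then at 0.209, 0.232 and 0.0893 (adjusted p = 1.25e-06). The second siNT library was the lowest of its group at WDR45 and FTSJ1. It was so also at PIEZO1, a mechanosensitive cation channel, whose intron 41 (chr16:88720284-88720384) had levels of 0.790, 0.442 and 0.727 against 0.280, 0.213 and 0.266 (adjusted p = 4.26e-07). NDOR1 (a diflavin reductase), RAB34 (a small GTPase), PCNX3 and MCAM (a cell adhesion receptor) fell by 0.372 to 0.418 in level, with adjusted p between 1.15e-05 and 0.00163.

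IFRD2, a ribosome-binding repressor of translation, lost retention at 3 neighbouring introns. Intron 2 (chr3:50290473-50290559) stood at 0.437, 0.347 and 0.620 in siNT and at 0.0583, 0.155 and 0.0953 in siSFSWAP. Intron 3 (chr3:50290295-50290387) went from 0.557, 0.382 and 0.712 to 0.146, 0.116 and 0.229, and intron 4 (chr3:50290087-50290169) from 0.402, 0.236 and 0.514 to 0.133, 0.140 and 0.127. All groups were separate, with adjusted p of 2.63e-19, 9.24e-16 and 0.000197. At intron 3 the dispersion of IFRD2's own reads was 14.7 while 2.6 was used, so its p rests on the spread of other introns. Exon 4, which lies between introns 3 and 4, was included at 0.749, 1.00 and 0.879 in siNT and at 1.00 in each siSFSWAP library (adjusted p = 0.0119, groups touching at 1.00).

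**Figure D2:**
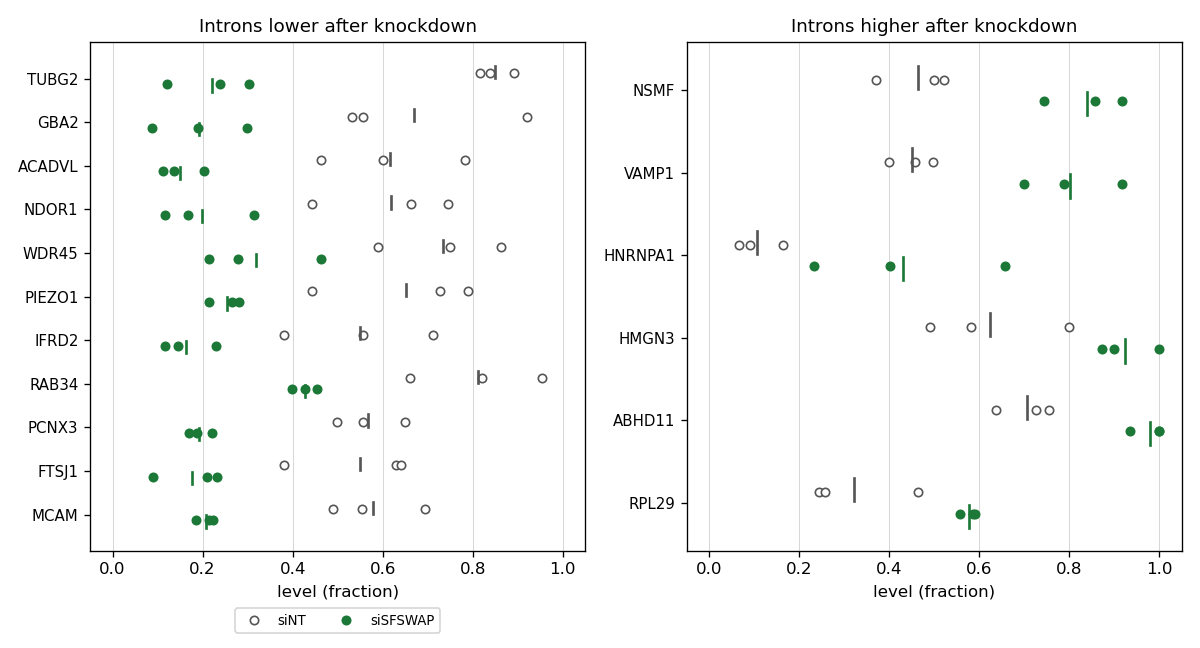
Retention level in each library (points; open for siNT, filled for siSFSWAP) of the 11 introns described for the largest falls and the 6 named for the largest rises. Short lines give the mean of 3 libraries, and the horizontal axis is a fraction. The open and filled points of a gene do not overlap, which was a condition for naming it.

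Several introns fell together in some transcripts. In 50 genes 3 or more introns were called lower, in 20 genes 4 or more and in 10 genes 5 or more, whereas only 2 genes had 3 introns called higher. Of these 10 genes, 9 are described, namely FLNA (8 of 21 introns tested), AUP1 (6 of 11), CPSF1 (6 of 23), RHOT2 (6 of 15), ACADVL (5 of 6), THOC6 (5 of 6), RECQL4 (5 of 7), VPS28 (5 of 7) and IDH3B (5 of 8). The naming rule asked for the 6 genes with the most, and a tie at 5 introns brought in all 10. Introns of a gene share its transcripts and are not independent of each other.

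The fall ran along neighbouring introns at different baselines. In THOC6, a subunit of the TREX mRNA export complex, introns 2, 4, 5, 6 and 11 of 12 fell. Its intron 11 (chr16:3027281-3027365) went from 0.644, 0.561 and 0.829 to 0.238, 0.338 and 0.422 and its intron 4 (chr16:3026167-3026250) from 0.377, 0.270 and 0.351 to 0.0714, 0.0835 and 0.127. In ACADVL introns 12, 13, 14, 17 and 18 fell, and intron 17 (chr17:7224553-7224641) was the most retained of them, at 0.836, 0.929 and 1.00 in siNT and 0.455, 0.565 and 0.768 in siSFSWAP. AUP1, which acts in ER-associated degradation and on lipid droplets, had the 241 nt intron 6 (chr2:74528007-74528247) at 0.609, 0.431 and 0.613 and then at 0.211, 0.249 and 0.298. RHOT2, the mitochondrial GTPase Miro2, had intron 16 (chr16:672567-672702) at 0.481, 0.367 and 0.652 and then at 0.174, 0.161 and 0.258. FLNA, the actin crosslinker filamin A, started from far lower levels and fell by 0.00721 to 0.0803 over its 8 introns, with groups that did not overlap at any of them. Of the 5 called introns of IDH3B, 1 (chr20:2660168-2660262) was listed at 1.00 in all siNT libraries and at 1.00, 0.158 and 1.00 in siSFSWAP, so that it rested on a single library.

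Introns that rose were of another kind. Their median length was 221 nt and their median GC content 41.5%, against 123 nt and 62.5% for introns that fell and 128 nt and 55.8% for all introns tested. None of the 6 genes named for the largest rise had its intron in the MANE transcript, and 1 of the 6 kept its call without each library in turn. VAMP1, a synaptobrevin of vesicle fusion, had a 2047 nt intron (chr12:6462843-6464889) at 0.456, 0.497 and 0.399 in siNT and 0.699, 0.917 and 0.787 in siSFSWAP (adjusted p = 0.00277). In HNRNPA1 a 272 nt intron (chr12:54283968-54284239) went from 0.0655, 0.0897 and 0.164 to 0.400, 0.657 and 0.232 (adjusted p = 2.1e-05). The gap between its groups is narrow beside the spread of its siSFSWAP values. The others were NSMF, HMGN3 (a nucleosome-binding protein), ABHD11 (a mitochondrial hydrolase) and RPL29, with rises of 0.256 to 0.376 in level. HNRNPA1 and RPL29 have many processed copies in the genome, so their reads are uncertain.

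One of the rising events is an intron that the spliceosome does not remove. XBP1, the transcription factor of the unfolded protein response, has a 26 nt intron that IRE1 cuts out in the cytoplasm, and the event was chosen after its values were seen. The sequence below runs along the minus strand of chr22:28796128-28796153 in GRCh38, with the 26 nt in capitals and 2 bases on each side. The capitals start with a G and a G follows them, so reads cannot tell this placement from one shifted by a single base. The capitals therefore need not mark the exact sites that IRE1 cuts. As placed here, the ends show neither GT nor AG, and this was the only tested intron with a GC start and a CT end.
XBP1 26 nt intron: ccGCAGCACTCAGACTACGTGCACCTCTgc
The unspliced form made up 0.663, 0.862 and 0.702 of XBP1 RNA in siNT and 0.911, 0.951 and 0.980 in siSFSWAP. All siSFSWAP libraries were above all siNT libraries (adjusted p = 2.74e-06), and the call held without each library. Reads of the cut form numbered 48, 20 and 49 in the siNT libraries and 9, 4 and 3 after knockdown, so this form was the rarer one throughout.

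Introns that fell differed from the rest in GC content and in the score of the 3′ splice site. Retention fell at 3.18% of introns below 50% GC, at 11.8% of those from 50 to 60% and at 18.3% of those at 60% or more. It rose at 2.61%, 1.29% and 0.595% of the same sets. The gradient was present at introns with a siNT level of 0.1 or more too, with 7.01%, 20.4% and 29.2% lower. Each splice site was scored by the frequency of its bases at MANE introns. Of the introns with the weakest 3′ splice sites 16.7% fell, of the middle set 10.01% and of the strongest 6.62%, in sets of 1948 each. The median 3′ score was 7.09 for introns that fell, 8.28 for those that rose and 8.53 for all. The 5′ site graded less than the 3′ site, with 12.8%, 11.3% and 9.22% lower from the weakest to the strongest set.

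Length and position also went with the calls. Introns under 100 nt fell in 11.6% of cases and those of 500 nt or more in 6.07%, while 1.03% and 5.61% rose. By place in the MANE transcript 18.1% of first introns, 16.8% of last introns and 11.5% of inner introns fell. Their median siNT levels were 0.163, 0.106 and 0.0491. Introns with AT and AC at their ends, which the minor spliceosome removes, were not called lower or higher at any of the 10 tested (two-sided regression, limma-moderated). Beside shares of 11.1% and 1.51% over all introns, 10 introns are too few to show a difference. These shares describe the introns tested and were not themselves tested, because GC content, length, level and depth vary together.

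**Figure D3:**
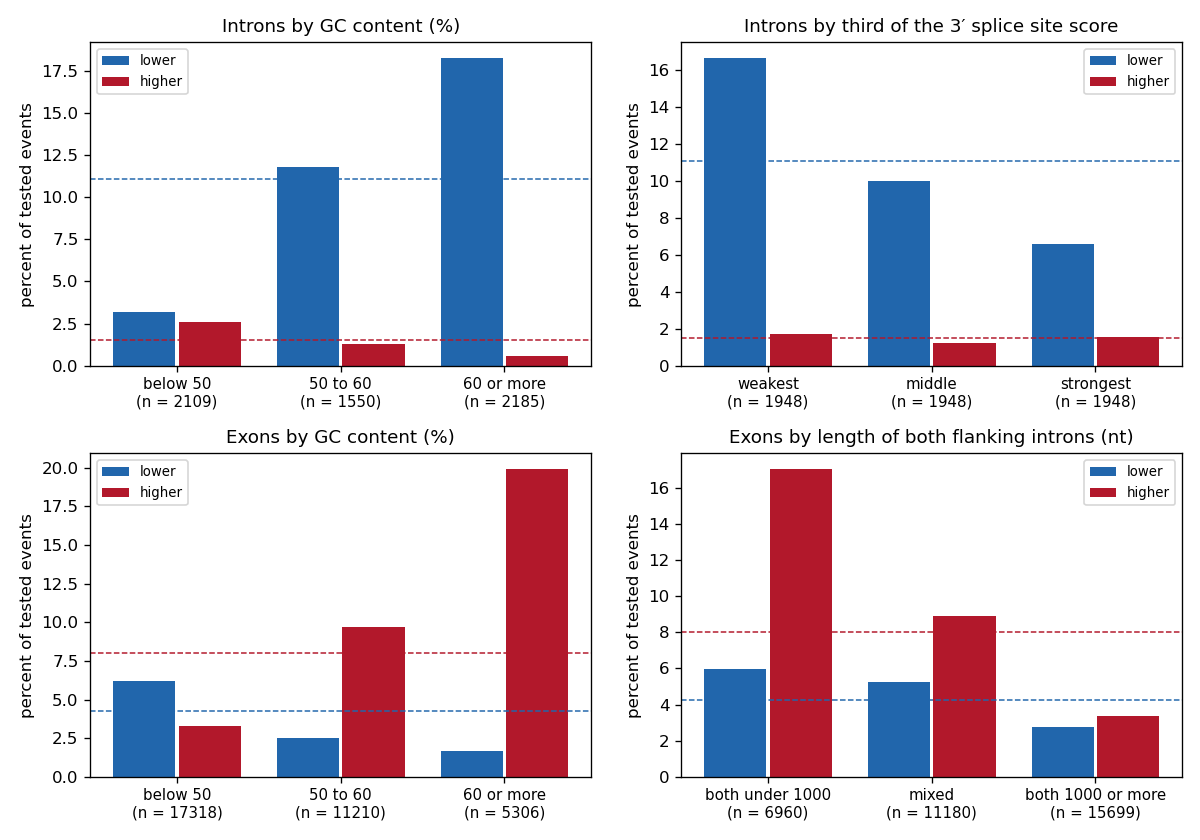
Percent of tested events called lower (blue) or higher (red) after knockdown, by GC content and 3′ splice site score of the intron (top) and by GC content of the exon and length of its flanking introns (bottom). Dashed lines give the share over all events of the kind, and the number tested stands under each pair of bars. Lower introns go from 3.18% to 18.3% and higher exons from 3.26% to 19.9% with rising GC content.

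Exons changed in both directions, and more of them toward inclusion. The inclusion level rose at 2711 events, which are 2584 distinct exons of 1143 genes, and fell at 1439 events, which are 1409 distinct exons of 705 genes. These are 8.01% and 4.25% of the 33839 exon events tested (same regression and threshold). Exons that rose had a median level of 0.674 in siNT and 0.941 in siSFSWAP, so they came close to full inclusion. Exons that fell had 0.963 in siNT and 0.767 in siSFSWAP, so they were nearly constitutive before knockdown. Over all exons tested the medians were 0.768 and 0.806. The groups did not overlap at 2265 exons that rose and at 1262 that fell, beside 25.9% of all exons.

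The siNT libraries also differed here. The exons that rose had a median level of 64.3%, 76.9% and 61.6% in siNT and 94.6%, 94.9% and 94.1% in siSFSWAP, so that the second siNT library was again the nearest to the knockdown, and without it 2768 exons were higher. Without the first siNT, the first siSFSWAP or the third siSFSWAP library the count dropped to 1717, 1668 or 1769, and the 1439 lower exons dropped to 897, 922 or 905 without the third siNT, the first siSFSWAP or the third siSFSWAP library. When the procedure was tested on simulated data, 8 of 27 exon calls were false, a share far above the nominal threshold of 0.05. Of the simulated intron calls 4 of 85 were false, which is within it. For each kind 100 events were changed by 1 and 100 by 2 in log2 odds, of 5845 introns and 33839 exons. These are smaller shares than were called in the data. The simulated reads were drawn with the moderated dispersion that the test itself uses. The simulation therefore cannot show what share of the real calls is false. Calls that held without each library in turn numbered 839 for exons that rose and 558 for exons that fell. With limma on the log2 odds 705 exons were higher and 453 lower. With each exon's own dispersion 0 passed, while 3004 higher and 1734 lower exons had an unadjusted p of at most 0.05.

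The exons with the largest rise went from mostly skipped to mostly included. The 12 named by the same rule as the introns all held without each library. Of these, 6 are coding exons of the MANE transcript. Their 3′ splice sites are printed below from GRCh38, with the last 2 intron bases in capitals, without REEP4 and EIF4G1. These 10 sites can be set beside those of the introns above, and BECN1 also has GC in place of GT at the start of its downstream intron.
STUB1 111 nt exon: ggctcctggtcaacccccAGgga
BECN1 exon 5: gggcggggggctgtctgcAGgat
NDUFV1 93 nt exon: ctaccccactgatccccaAGtct
DPF1 exon 7: ctggctcgctcgctccccAGtct
PYCR1 217 nt exon: agggtgccttctccccacAGgca
COASY exon 5: tgtctgtctgtgttgtccAGata
WDR45 134 nt exon: cccacccacctgcccagcAGtgc
FASTK exon 8: ccggccctgctcccctccAGact
VCAN exon 7: ctttgaaattatttttctAGcta
PREB 127 nt exon: tggcctgcgactcttcacAGtgc
BECN1 5′ splice site: aagGCaagt

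STUB1, the ubiquitin ligase CHIP, showed the largest rise among the exons that meet the naming rule, which asks for at least 50 reads per library. Its 111 nt exon (chr16:681793-681903) was included at 0.0912, 0.303 and 0.0460 in siNT and at 0.948, 0.809 and 0.912 in siSFSWAP (adjusted p = 1.62e-16). Exon 5 of BECN1, the autophagy protein beclin 1 (chr17:42818787-42818877), went from 0.0993, 0.350 and 0.227 to 0.926, 0.912 and 0.833 (log2 odds ratio of siNT to siSFSWAP -4.73 ± 0.50, adjusted p = 3.34e-33). It is 91 nt long, so that its skipping shifts the reading frame. The intron that follows it (intron 5, chr17:42818681-42818786) fell from 0.106, 0.0751 and 0.0778 to 0.0132, 0.0464 and 0.0168 (adjusted p = 0.016). In COASY, the enzyme of the last steps of coenzyme A synthesis, exon 5 (65 nt, chr17:42564983-42565047) rose from 0.152, 0.321 and 0.201 to 0.800, 0.854 and 0.767 (adjusted p = 1.26e-41). For BECN1 and COASY the siSFSWAP libraries lay within 0.1 of each other, and the second siNT library was the highest of its group.

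NDUFV1 encodes a core subunit of mitochondrial complex I, and its 93 nt exon (chr11:67611477-67611569) went from 0.0857, 0.138 and 0.0863 to 0.766, 0.898 and 0.579 (adjusted p = 4.64e-14). The next intron of NDUFV1 (intron 7, chr11:67611570-67611896) fell from 0.113, 0.0588 and 0.20 to 0.0227, 0.0294 and 0.0388 (adjusted p = 1.31e-10). PYCR1, which makes proline in mitochondria, had a 217 nt exon (chr17:81934529-81934745) at 0.192, 0.395 and 0.102 and then at 0.738, 0.803 and 0.946 (adjusted p = 3.47e-10). VCAN stands apart from these short exons. Exon 7 of VCAN, which codes for a glycosaminoglycan attachment region of the proteoglycan versican, is 2961 nt long (chr5:83519349-83522309) and rose from 0.157, 0.310 and 0.174 to 0.664, 0.701 and 0.859 (adjusted p = 1.13e-05). DPF1, REEP4, WDR45, FASTK, PREB and EIF4G1 rose by 0.520 to 0.623 in level. The EIF4G1 exon is exon 2, in the 5′ untranslated region, and was included at 0.450, 0.699 and 0.223 and then at 1.00, 0.968 and 0.965 (chr3:184315489-184315545, adjusted p = 5.11e-08).

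Exons that fell were shorter, with a median of 89 nt against 121 nt for all exons tested, and poorer in G and C. The 7 exons described measured 33 to 485 nt and all held without each library. In DZIP3, a ubiquitin ligase, the 33 nt exon 15 (chr3:108646617-108646649) was included at 1.00 in every siNT library and at 0.455, 0.365 and 0.557 in siSFSWAP (adjusted p = 1.06e-10). The 3′ splice site of DZIP3 is shown for comparison with those of the exons that rose.
DZIP3 exon 15: tttttctttatgtattatAGgaa
SNHG1, a host gene of small nucleolar RNAs, had a 51 nt exon (chr11:62854888-62854938) at 0.672, 0.735 and 0.821 and then at 0.204, 0.353 and 0.268 (adjusted p = 1.38e-40). Groups that do not overlap were a condition for naming both of these exons.

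Alternative forms of longer exons were also among those that fell. SMC2, a core subunit of condensin, had a 271 nt exon that is not in the annotation (chr9:104100389-104100659) at 1.00, 1.00 and 0.985 in siNT and 0.302, 0.580 and 0.384 in siSFSWAP (adjusted p = 4.12e-23). The annotated 45 nt exon with the same start, exon 7 of SMC2, changed less, from 1.00, 1.00 and 0.998 to 0.784, 0.898 and 0.800 (adjusted p = 6.19e-24). Exon events that share a start may share both skipping and inclusion reads. A level of 1.00 means that no skipping reads were counted. The levels of the 271 nt and 45 nt exons therefore do not tell how much of each form was present. UBA1, the enzyme that starts ubiquitin conjugation, STX18, a SNARE of the endoplasmic reticulum, and PHB2, a prohibitin, fell by 0.504, 0.560 and 0.585 in level. The PHB2 exon is preceded by AT instead of AG, so the 3′ splice site at its upstream edge is not of the usual kind. RPL17C18orf32 is a readthrough gene whose reads cannot be told apart from those of its parent genes, and its 94 nt exon fell by 0.518.

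**Figure D4:**
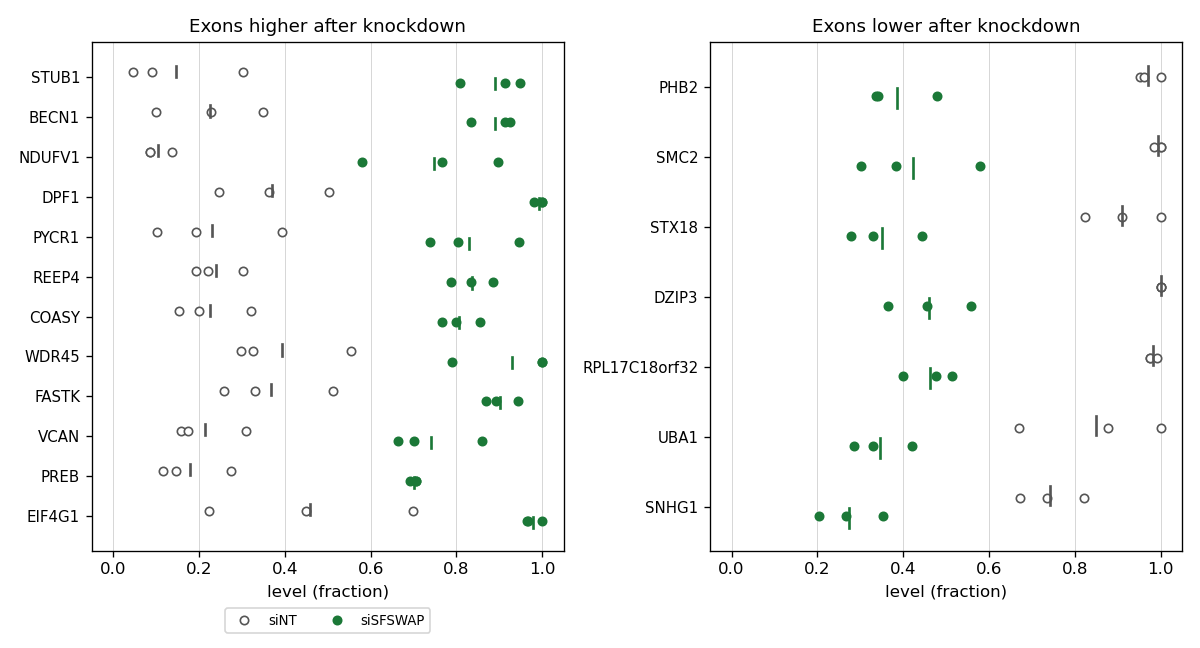
Inclusion level in each library (points; open for siNT, filled for siSFSWAP) of the 12 exons named for the largest rises and the 7 described for the largest falls. Short lines give the mean of 3 libraries, and the horizontal axis is a fraction. The exon of STUB1 goes from at most 0.303 to at least 0.809, and that of DZIP3 from 1.00 to at most 0.557.

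Exons that rose were richer in G and C and had shorter flanking introns than exons at large. The median GC content was 57.7% for exons that rose, 43.9% for exons that fell and 49.4% for all. Their upstream introns had a median GC content of 55.6%, 39.1% and 44.2%. Inclusion rose at 3.26% of exons below 50% GC, 9.71% of those from 50 to 60% and 19.9% of those at 60% or more, and fell at 6.17%, 2.52% and 1.66% of them. The flanking introns of rising exons had a median length of 600 nt upstream and 544.5 nt downstream, against 1684.5 and 1685 nt for all exons tested. Between flanking introns both under 1000 nt 17.1% of exons rose, and between introns both of 1000 nt or more 3.36%. Exons of 30 nt or less fell in 14.6% of cases and rose in 5.44%. Exons with the weakest 3′ splice sites rose in 10.5% of cases and those with the strongest in 4.58%. An exon length that keeps the reading frame made little difference, with 7.88% of such exons and 8.10% of the others higher. These shares were not tested.

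Exons beside introns that fell tended to be included more. With 1 event kept per exon, 740 pairs of an exon and a lower intron at its edge were found, and the exon rose in 241 (32.6%) and fell in 5 (0.676%). Beside introns that were not called there were 3512 pairs, of which 612 (17.4%) rose and 306 (8.71%) fell. On the downstream side of a lower intron 38.4% of 315 exons rose and 0 fell. Retention and inclusion events at such a border count the same junction reads, so that the pairs are not independent measurements. By gene, 221 genes had both a lower intron and a higher exon. That is 56.8% of the 389 genes with a lower intron and 31.5% of the 702 genes with a higher exon, among 2380 genes tested for both kinds, of which 29.5% had a higher exon.

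Some exons lie inside a retained intron, as the OGT decoy does. There were 171 such pairs in 80 introns. In introns that fell 6 inner exons fell, 1 rose and 15 were not called, and the 6 lie in 3 genes, with 3 overlapping events in GAS5 alone. In introns that rose 15 inner exons rose, 1 fell and 7 were not called, and 8 of the 15 are overlapping events of ABHD11. In introns that were not called 28 inner exons rose, 6 fell and 92 were not called. GAS5, a small nucleolar RNA host gene, had a 63 nt exon (chr1:173864484-173864546) whose mean level went from 0.809 to 0.370 while the intron around it (chr1:173864305-173864674) fell by 0.303 (adjusted p of the exon 4.24e-16). In RSRP1, an RS-rich protein gene, a 318 nt exon fell from 0.485 to 0.287 and its intron by 0.182. GAS5, RSRP1 and the counts of inner exons were looked at after the values were seen, and an inner exon and its intron share reads.

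OGT intron 4 was not analysed here as a retained intron, so OGT was followed through its decoy. Reads joining exon 4 directly to exon 5 numbered 34, 29 and 25 in siNT and 81, 41 and 58 in siSFSWAP. Scaled to all reads at exon events the mean was 1.97 times higher (exact permutation test, p = 0.1, again the lowest possible). The longer form of the decoy exon (chrX, from 71546344 to 71546496) had inclusion levels of 0.543, 0.755 and 0.715 and then 0.437, 0.649 and 0.592, a difference of -0.112 that did not pass (adjusted p = 0.0757). The skipping reads of the decoy are the junction reads above, so its level and the junction count are not independent. Its inclusion reads numbered 103, 228 and 160 in siNT and 160, 193 and 214 in siSFSWAP. These include reads within the exon, so RNA that keeps intron 4 can add to the level. The groups overlap at the decoy level but not at the junction. The 4 other OGT introns tested stood at 0.0450 or less in all libraries and none was called. A 107 nt exon of MGEA5 (chr10:101795374-101795480), outside the annotation, fell from 0.0669, 0.0385 and 0.0383 to 0.0226, 0.00269 and 0.00888 (adjusted p = 0.0479), and the call was lost in 5 of the 6 analyses without a library. FN1, fibronectin, had a 93 nt intron (chr2:215372016-215372108) at 0.497, 0.560 and 0.436 and then at 0.347, 0.325 and 0.25 (adjusted p = 0.00405). No exon event of FN1 was called. The earlier work on FN1 that the paper cites concerned exclusion of an exon region, and whether the 93 nt intron lies in that region was not examined. Of the other genes that the paper discusses for splicing, ARGLU1, SF3B1 and SFSWAP had no called event, and PTPRC, MAPT and TSTA3 were not among those tested.

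The counts of each gene list are read beside the shares over all events, 11.1% lower and 1.51% higher for introns and 4.25% lower and 8.01% higher for exons, and no list was tested against them. SR proteins, which bind exonic enhancers, had 20 exon events lower (17.1%) and 3 higher (2.56%) of 117, with a median difference of -0.00659 (all exons, 0.00424). Those 20 lie in 4 genes, among them TRA2A, whose 79 nt exon (chr7:23522354-23522432) fell from 0.357, 0.202 and 0.298 to 0.121, 0.107 and 0.154 (adjusted p = 0.00303). A 48 nt exon of SRSF10 (chr1:23971573-23971620) fell from 0.883, 0.793 and 0.856 to 0.686, 0.646 and 0.637, and a 195 nt exon of SRSF4 rose from 0.00273 or less to between 0.0204 and 0.0444. hnRNP genes changed either way, at 27 exons lower (13.6%), in 10 genes, and 28 higher (14.1%), in 9 genes, of 198. PCBP2, a poly(C)-binding protein, had the 39 nt exon 12 (chr12:53467805-53467843) at 0.744, 0.750 and 0.768 and then at 0.393, 0.478 and 0.505 (adjusted p = 6e-74). Branchpoint and U2 factors had 4 introns lower (12.9%) and 0 higher of 31, and 7 exons lower (7.07%) and 10 higher (10.1%) of 99, near the shares over all events. CHERP, itself a SURP protein, was among them, with intron 14 (chr19:16520266-16520363) at 0.183, 0.116 and 0.249 and then at 0.0337, 0.0514 and 0.0694 (adjusted p = 2.93e-08). SF1, the branchpoint binding protein, had a 205 nt exon (chr11:64765951-64766155) at 0.420, 0.451 and 0.420 and then at 0.704, 0.649 and 0.695 (adjusted p = 8.33e-14). The splicing kinases had 5 exons lower (16.1%), in 2 genes, and 0 higher of 31. Exon 4 of CLK1 fell from 0.868, 0.913 and 0.909 to 0.838, 0.821 and 0.728 (adjusted p = 0.0129). The counts of 0 are from the limma-moderated regression.

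Genes of DNA repair had 14 introns lower (21.5%) and 0 higher of 65 (median difference -0.0285, all introns -0.00617). The 14 lie in 8 genes, with 5 in RECQL4. Their exons were higher at 23 (7.21%) and lower at 11 (3.45%) of 319, near the shares over all events. In POLD1, the catalytic subunit of DNA polymerase δ, intron 21 (chr19:50415591-50415723) fell from 0.698, 0.377 and 0.658 to 0.0676, 0.165 and 0.288 (adjusted p = 9.51e-06). Histone and DNA modifiers had 11 introns lower (12.6%, near the 11.1% of all introns) and 0 higher of 87. They had 42 exons higher (12.7%), in 23 genes, and 8 lower of 332. CHD4, a nucleosome remodeller, had intron 26 (chr12:6583114-6583197) at 0.260, 0.169 and 0.196 and then at 0.0877, 0.0962 and 0.0919 (adjusted p = 8.68e-15), and a 120 nt exon of KAT2A, a histone acetyltransferase, rose from 0.0138 or less to between 0.195 and 0.267 (adjusted p = 2.3e-12). Tubulin genes had 5 introns lower and 0 higher of 12 in TUBG2 and TUBGCP6. They had 12 exons higher (22.2%), in 6 genes, and 0 lower of 54. TUBGCP6, of the γ-tubulin ring, had intron 23 at 0.598, 0.770 and 0.921 and then at 0.211, 0.121 and 0.219 (adjusted p = 2.64e-06).

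Autophagy genes had 18 exons higher (12.6%, all exons 8.01%), in 6 genes, and 2 lower (1.40%, all exons 4.25%) of 143. They also had 5 introns lower (19.2%) and 1 higher of 26, and the 5 lie in 3 genes, with 3 in WDR45. ULK3, a kinase related to ULK1, had intron 2 (chr15:74842196-74842279) at 0.782, 0.575 and 0.575 and then at 0.213, 0.324 and 0.292 (adjusted p = 3.46e-05). Apoptosis genes had 14 exons higher (11.97%), in 5 genes, and 1 lower of 117. The 1 that fell is exon 6 of FAS, the death receptor, which encodes its membrane-spanning part (chr10:89010753-89010815). It went from 0.859, 0.793 and 0.880 to 0.651, 0.664 and 0.387 (adjusted p = 0.000332). Glycolysis and pyruvate genes had 16 exons higher (20.3%), in 5 genes, and 2 lower of 79. A PKM exon (chr15:72202454-72202620), number 9 of 11 when counted in the MANE transcript, rose from 0.851, 0.868 and 0.804 to 0.955, 0.974 and 0.957 (adjusted p = 3.01e-15).

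The remaining lists are given by their counts, which for all events come to 11.1% lower and 1.51% higher introns and 4.25% lower and 8.01% higher exons. Several events of a list can lie in 1 gene and are then not independent. Fatty acid oxidation genes had 5 introns lower and 0 higher of 17, all of ACADVL, and 4 exons higher (6.25%) and 3 lower of 64. Translation initiation factors had 37 exons higher (10.6%), in 10 genes, and 6 lower (1.72%) of 349. They had 5 introns lower (6.02%) and 1 higher of 83. Cytosolic ribosomal proteins had 22 introns lower (16.8%) and 11 higher (8.40%) of 131 and 71 exons higher (11.9%) and 58 lower (9.73%) of 596, and their processed copies make these counts uncertain. Complex I genes had 11 exons higher (9.65%), in 3 genes, and 5 lower (4.39%) of 114. They had 4 introns lower and 2 higher of 23. Condensin, cohesin and division genes had 21 exons in each direction of 283 (7.42%) and 3 introns lower (4.84%) and 0 higher of 62. Ubiquitin ligase and proteasome genes had 28 exons higher (10.3%), in 5 genes, and 11 lower (4.04%) of 272. They had 4 introns lower (5.56%) and 0 higher of 72. For tRNA synthetases 13 exons were higher (7.78%) and 14 lower (8.38%) of 167, with 6 introns lower (13.3%) and 0 higher of 45. Nonsense-mediated decay genes had 9 exons higher (7.83%) and 4 lower of 115, and m6A genes 4 higher (7.41%) and 0 lower of 54. Hexosamine pathway genes had 8 higher (12.9%) and 1 lower of 62, and the 8 lie in 2 genes, AMDHD2 and GPI. In the m6A list METTL3, the catalytic methyltransferase, had intron 9 (chr14:21499138-21499305) at 0.426, 0.378 and 0.344 and then at 0.144, 0.255 and 0.241 (adjusted p = 0.000383).

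The libraries with UPF1 knocked down gave a second measurement of the same knockdown in separate cells. UPF1 drives nonsense-mediated decay, so that forms with a premature stop codon are kept in these cells. Of the 649 introns that fell, 330 were tested there as well, 304 of them (92.1%) had a difference in the same direction, 92 passed the test in that direction and 1 in the other. Of introns that were not called 60.9% had the same direction in both. For exons that rose 1737 of 1870 (92.9%) had the same direction and 667 passed, and 7 passed in the other. For exons that fell 1020 of 1070 (95.3%) had the same direction and 513 passed. The introns that rose kept their direction at 43 of 46. The median difference was -0.135 with UPF1 and -0.0605 without it for introns that fell, and 0.150 and 0.0827 for exons that rose, and the first of each pair is from the libraries in which the events were chosen.

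**Figure D5:**
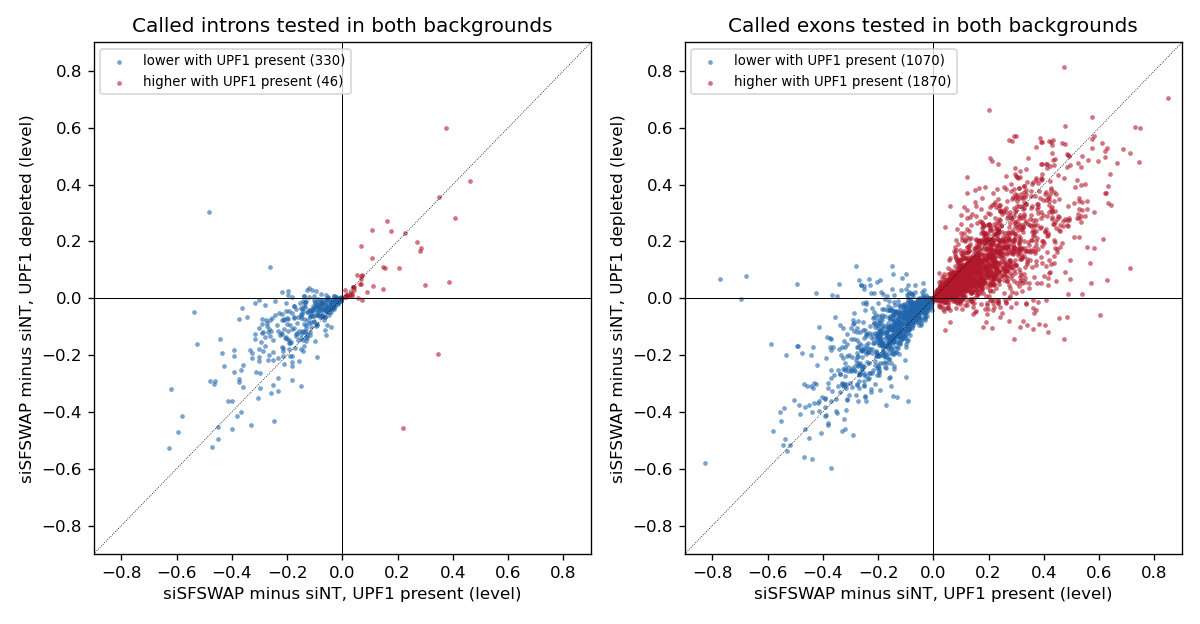
Difference in level, siSFSWAP minus siNT, with UPF1 present (horizontal axis) and with UPF1 depleted (vertical axis) for called introns (left) and exons (right) tested in both. Points on the dotted diagonal have equal differences, and the calls were made with UPF1 present. Among lower introns 304 of 330 points lie below 0 on the vertical axis, and among higher exons 1737 of 1870 lie above it.

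The events named for the largest changes kept their direction in those cells wherever they were tested. The TUBG2 intron stood at 1.00, 0.799 and 0.622 in siNT/siUPF1 and at 0.299, 0.174 and 0.366 in siSFSWAP/siUPF1 (adjusted p = 2.4e-05). The exon of DZIP3 was again included at 1.00 in all control libraries and at 0.410, 0.779 and 0.652 after SFSWAP knockdown (adjusted p = 3.3e-08). The COASY exon was at 0.264, 0.224 and 0.462 and then at 0.933, 0.848 and 0.881 (adjusted p = 1.4e-26). All 6 of the named lower introns tested there, all 11 of the named higher exons and all 4 of the named lower exons had the same direction, and 6, 11 and 3 of them passed. The named higher introns did so at 4 of 4, and 2 passed. Elsewhere the direction was not always shared. In the genes with 5 or more called introns it was the same at 21 of 23, and CLK1 exon 4, which fell with UPF1 present, had a mean of 0.825 in siNT/siUPF1 and 0.857 in siSFSWAP/siUPF1 (adjusted p = 0.645). The longer OGT decoy had a mean of 0.868 in siNT/siUPF1 and 0.641 in siSFSWAP/siUPF1 (adjusted p = 0.00115), and its difference between backgrounds did not pass (adjusted p = 0.995).

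A difference of the effect between backgrounds was detected at very few events. The simulation did not cover this test, so how many differences it misses is not known. The test of the difference itself passed at 1 of 2795 introns (0.0358%) and at 3 of 22458 exons (0.0134%). The intron lies in CREBZF, a bZIP cofactor (chr11:85662458-85663523), and with UPF1 present it fell from 0.554, 0.401 and 0.478 to 0.207, 0.20 and 0.190. With UPF1 depleted it stood at 0.236, 0.238 and 0.266 and at 0.209, 0.211 and 0.253, so all 6 of these values lay between 0.209 and 0.266 (difference of log2 odds ratios 1.65, adjusted p = 9.4e-06). A second CREBZF intron (chr11:85663602-85663814) fell from 0.864, 0.868 and 0.842 to 0.682, 0.769 and 0.737, and its difference between backgrounds did not pass (adjusted p = 0.32). MSTO1, EIF3G, HMGCS1 and DDX11 were next in order and did not pass, with adjusted p of 0.24 to 0.56.

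The exons were in RBX1, SRRM1 and SNRPA1. In RBX1, the RING subunit of cullin ligases, a 160 nt exon (chr22:40955287-40955446) was at 0.0483, 0.0321 and 0.0479 in siNT and 0.0488, 0.0487 and 0.0394 in siSFSWAP, and at 0.166, 0.258 and 0.150 and then 0.0478, 0.0341 and 0.0458 with UPF1 depleted (adjusted p of the difference 0.0157). SRRM1, an RS-rich splicing coactivator, had a 130 nt exon (chr1:24647079-24647208) that rose from 0.0351, 0.0712 and 0.0585 to 0.0855, 0.105 and 0.103 with UPF1 present and stood at 0.155, 0.236 and 0.133 and then 0.0473, 0.0944 and 0.0457 with UPF1 depleted (0.0157). For exon 6 of SNRPA1, the U2 snRNP protein A′ (chr15:101286214-101286293), the levels were 0.918, 0.909 and 0.939 and then 0.879, 0.927 and 0.873, and with UPF1 depleted 0.584, 0.640 and 0.721 and then 0.851, 0.856 and 0.914 (0.0341). At each of these exons the siNT/siUPF1 libraries lay outside the range of the other 9 libraries. UQCRH, DNAJC2 and FNBP4 followed and did not pass.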

How the data were processed

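RNA-seq was performed on polyA RNA of 293A-TOA cells, with libraries prepared by the KAPA mRNA HyperPrep kit. The authors trimmed reads with cutadapt 1.9.1 and aligned them with STAR 2.7 (GRCh38.p8), tools that the submitters' notes list, and counted events with rMATS. The deposited tables hold, per event, the inclusion and skipping read counts of each group as 3 counts joined in 1 cell, together with effective lengths. The p-values, FDR values and level differences that the authors deposited were not used. Levels were computed from counts and effective lengths and were within 0.0005 of the deposited inclusion levels, which are fractions.

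Each event was fitted by quasi-binomial logistic regression with group as the only term. The Pearson dispersion was moderated with limma 3.58.1 (robust, trended on log2 mean reads) and floored at 1, and an F test on the deviance was adjusted by Benjamini-Hochberg over all events of the kind (threshold 0.05, two-sided). The difference between backgrounds was a Wald test on the difference of log2 odds ratios. The procedure was tested on simulated data with known changes, where many were missed, more so for exons. The false share of calls there was within the threshold for introns and above it for exons. Simulated reads had the moderated dispersion that the test uses, so these shares need not hold for the real calls.

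Annotation was GENCODE 44 with MANE transcripts. Software was R 4.3.3 for the fits (with the package data.table, version 1.17.8) and Python 3.11.15 for the rest, using matplotlib 3.10.9, scipy 1.17.1, pandas 2.3.3 and numpy 2.4.6. The comparison, the gene lists and the naming rules were chosen with earlier results of these data known. Named events are, 1 per gene, the called events with at least 50 reads per library, groups that do not overlap and the largest difference in mean level (12 introns lower, 6 higher, 12 exons higher, 8 lower). Named as well are the genes with the most called introns, up to 4 genes of each list by adjusted p, the genes the paper names for splicing and the 6 events of each kind with the lowest adjusted p between backgrounds. Of the genes these rules select, 2 are not reported here and were not replaced. Events without a gene symbol (57 introns, 289 exons tested) were counted but not named. Alternatives were a filter of 30 reads, no filter, 1 prior for all depths, each event's own dispersion, limma on the log2 odds (pseudocount 0.5), 1 event per exon, a minimum difference of 0.2, and omission of each library.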

Additional observations from a re-analysis of the deposited data

Results flagged for a closer look

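At 4 events the effect of SFSWAP knockdown differed between cells with and without UPF1, by the test of the difference itself. They are the CREBZF intron at chr11:85662458-85663523 (adjusted p = 9.4e-06), the RBX1 exon at chr22:40955287-40955446 (0.0157), the SRRM1 exon at chr1:24647079-24647208 (0.0157) and the SNRPA1 exon at chr15:101286214-101286293 (0.0341). Without 1 library at a time the number of introns that passed ran from 1 to 4 and that of exons from 0 to 47. No range test for a single outlying value was run within a group of 3 libraries.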

How the results depend on the processing

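No paired analysis was possible because the 3 values of a group are joined in 1 cell and carry a place in a list but no replicate number. No event named in the report and no count reversed its direction under any alternative run. With each event's own dispersion 0 introns and 0 exons passed in either direction, with 680 lower and 127 higher introns and 1734 lower and 3004 higher exons at an unadjusted p of at most 0.05. With limma on the log2 odds 0 introns were lower (945 unadjusted) and 0 higher (176 unadjusted), and 453 exons were lower and 705 higher. A difference in level of at least 0.2 left 189 lower and 24 higher introns and 386 lower and 1074 higher exons. The filter of 30 reads, which tests 13118 exon events, gave 1783 higher exons, and 0 exons that differed between backgrounds (418 unadjusted). The other alternatives, among them no filter and 1 prior for all depths, kept the counts of the SFSWAP comparison within 1.5 times.

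Without each library in turn, lower introns numbered 418 to 787, higher introns 56 to 97, lower exons 897 to 1288 and higher exons 1668 to 2768. Counts moved by over 1.5 times for lower introns without the first (430) or the third (418) siNT library or the first siSFSWAP library (424), and for higher introns without the first siNT (58), the third siNT (56) or the second siSFSWAP (56). Lower exons moved so without the third siNT (897), the first siSFSWAP (922) or the third siSFSWAP (905) library, and higher exons without the first siNT (1717), the first siSFSWAP (1668) or the third siSFSWAP (1769). The cause was not tested. Introns that differed between backgrounds numbered 1 to 4 and exons 0 to 47, the 47 without the third siNT/siUPF1 library. Without the first siSFSWAP library 0 exons passed (843 unadjusted). SFSWAP reads were 0.339 to 0.429 of siNT, the OGT junction ratio ran from 1.64 to 2.30 and the decoy difference from -0.176 to -0.0510.

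Of the 100 named events that were called, 90 of the 600 refits without 1 library lost the call, limma on the log2 odds lost 82, 1 prior for all depths 6, no filter 7 and the filter of 30 reads 3. The depth of single events limits what the test can find. Places in the lists need not match between tables, and intron 4 of OGT was not measured as an event.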
